A study of Drosophila melanogaster with 3 samples.

Results

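The glypican genes dally and dlp and 4 genes for enzymes that build heparan sulfate, ttv, sotv, botv and sfl, were examined for anti-HA CUT&Tag peaks in Drosophila melanogaster wing discs. Each gene was taken with 5000 bp on either side of its annotated span in the dm6 assembly, and every deposited peak that overlapped this window was counted. The windows of the 6 genes held 26, 23 and 28 of the 9268, 9005 and 9225 peaks of replicates 1, 2 and 3. Peaks that overlapped by at least 1 bp were merged into regions, and a region with a peak in all 3 libraries is called a consensus region. The windows held 20 of the 5768 consensus regions on the main chromosomes. The 6 genes are among 13946 protein-coding genes of the annotation.

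Glypicans are proteoglycans tethered to the cell surface by a lipid anchor, and their heparan sulfate chains bind secreted ligands. In the wing disc they are known to shape the spread and reception of Wingless, Dpp and Hedgehog. The chains are polymerised by enzymes of the exostosin family in the Golgi and then sulfated, and loss of these enzymes impairs the same ligands.

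All 3 libraries belong to a single group, third-instar wing discs of genotype nub>GFP;UAS-BunA-HA, numbered here as replicates 1 to 3, which carry the numbers 2, 3 and 4 in their titles. In these larvae the nubbin driver, known for its activity in the wing pouch, expressed GFP and an HA-tagged BunA, an isoform of the TSC22 family gene bunched, and an antibody to HA directed the tagging of nearby DNA. The tagged protein was thus expressed ectopically where the driver was active, while whole discs were collected. Flies were kept at 25 °C, and the discs were dissociated at 37 °C for 15 min. Nothing in the labels tells if separate animals went into each library, and the SD given below may be only technical. A control library, such as one lacking BunA-HA, was not analysed here, and signal from the tag and signal from open chromatin cannot be told apart. With 1 group there was no comparison between conditions, and all values are descriptions without a test.

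As a check of the tissue, all 5 wing disc genes listed (nub, vg, wg, ap and en) had a consensus region in their windows. So did 7 of 10 listed genes of myoblasts, trachea, haemocytes, neurons and fat body, against 40.2% of all protein-coding genes. Peaks do not measure expression, so these counts do not identify the cells. Peaks per library numbered 9166 ± 141 (SD, n = 3), the peak lists hold no read counts, and sequencing depth is unknown.

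The windows of the 2 glypican genes held most of the consensus regions, and they took up 123 of the 286 kb of all windows. Of the 20 consensus regions, 8 lay in the dally window and 6 in the dlp window, against 3 in the window of sfl, 2 in that of sotv, 1 in that of ttv and 0 in that of botv. The genes differ widely in size, with spans of 63.7 kb for dally, 39.0 kb for dlp, 61.7 kb for ttv, 54.4 kb for sfl, 4.12 kb for botv and 2.82 kb for sotv. At least 1 consensus region lay in 5 of the 6 windows, against the same 40.2% of all protein-coding genes. By span this share was 77.6% of genes from 50000 bp, the class of dally, ttv and sfl, 67.1% of genes of 20000 to 50000 bp, the class of dlp, and 32.9% of genes under 5000 bp, the class of sotv and botv. A window with a region is thus common among genes as long as the 4 large ones.

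Per length, dlp had 1.22 and dally 1.09 consensus regions per 10 kb of window. The median was 0.346 for genes of the span class of dlp and 0.286 for genes of the class of dally. In their own span classes, 9.49% of genes had at least 6 regions, as dlp did, and 16.9% had at least 8, as dally did. By density, 12.2% of genes in the class of dlp and 8.95% in that of dally stood at or above them. By these window counts dally and dlp were thus in the upper part of genes of their size, without being extreme, and by density so was sotv. Of the 6 regions of dlp, 4 were inside the gene and 2 in a flank, over the neighbouring gene ome. Of the 8 of dally, 5 were inside and 3 in a flank. The window of sfl had 0.466 regions per 10 kb and that of ttv 0.140, against the median of 0.286 for their class. In this class 36.4% of genes stood at or above sfl by density and 64.5% at or above ttv. At most 1 region, as in ttv, was found in 36.7% of genes from 50000 bp. The window of sotv had 1.56 per 10 kb, from 2 regions in 12.8 kb that both lay over a neighbouring gene. In its span class the median was 0, and 11.6% of genes stood at or above it.

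**Figure D1:**
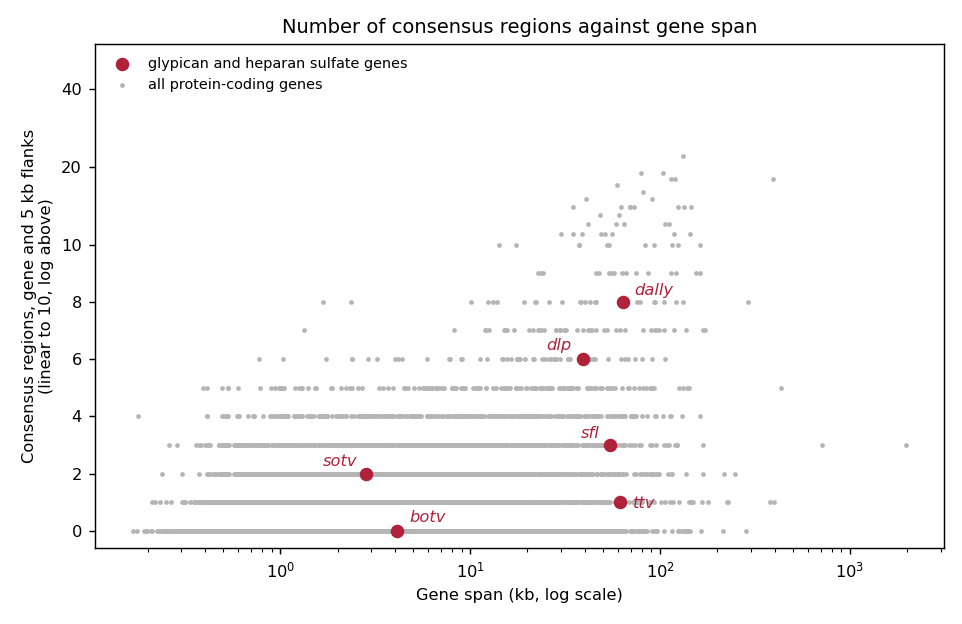
Number of consensus regions in the gene and its 5 kb flanks (vertical axis, linear to 10 and log above) against gene span in kb (horizontal axis, log scale) for the 6 genes (red, named) and all protein-coding genes (grey). At 8 and 6 regions, dally and dlp sit among the upper genes of their span, while ttv, of nearly the span of dally, has 1.

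Of the 20 consensus regions, 11 were centred inside the span of the gene itself and overlapped no other annotated gene, and 9 lay in a flank. Of those in a flank, 5 overlapped another gene and 4 overlapped none. The member's own end was the nearest gene end for 9 of the 20. Strand, exons and transcription start sites are not in the gene table used here, so positions are given from the lower-coordinate and upper-coordinate ends of each gene, with no statement on exons and introns. Distances to a gene end run from the centre of a region, the mean of its summits, so a region centred outside a gene can still reach into it.

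**Figure D2:**
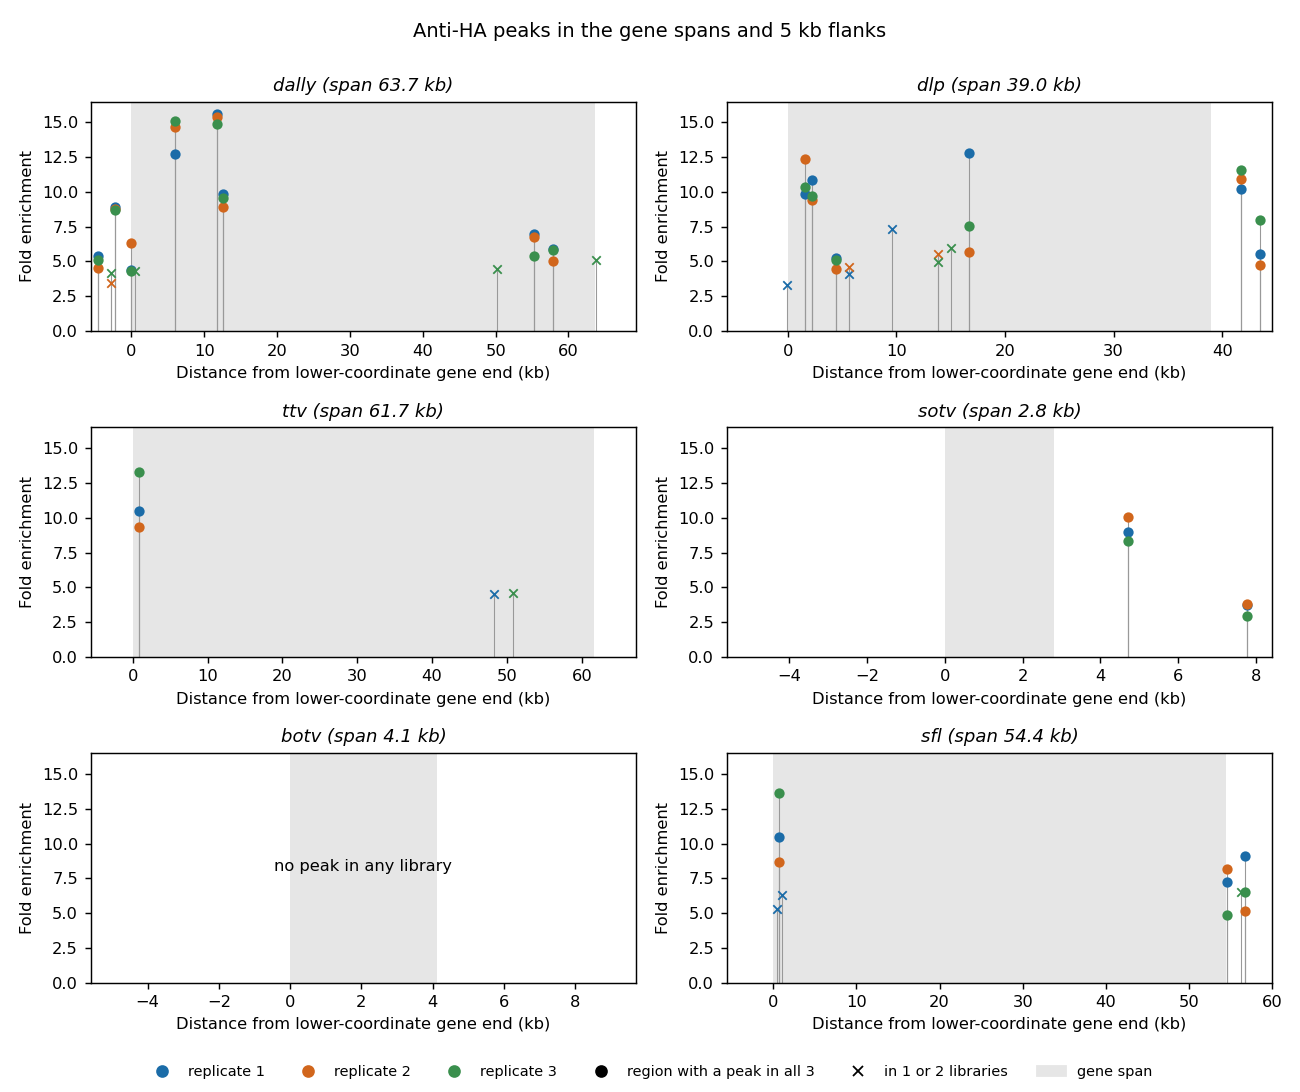
Fold enrichment of each peak (vertical axis) against the distance in kb of its region's centre from the lower-coordinate end of the gene (horizontal axis), 1 panel per gene, with the span shaded and a colour per library. Circles are regions with a peak in all 3 libraries and crosses those of 1 or 2. The dally and dlp regions crowd towards the lower-coordinate end, ttv and sfl have no consensus region over most of their span, and botv has no peak.

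Fold enrichment is the authors' value at the summit of a peak, a linear ratio over the background that the peak caller estimated. A region's value is that of its highest peak in each library, and its percentile is the mean of the ranks of these peaks within their libraries. Over the 20 regions the median fold was 8.74, with a range of 3.51 to 15.3, against a median of 8.2 for all consensus regions, and 11 of the 20 stood above that median. The regions as a set were therefore of ordinary strength.

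The gene dally, division abnormally delayed, encodes the glypican best known for its part in Dpp signalling, and on 3L, at 8827505 to 8891192, it carried the strongest region of the 6 genes. This region, at 8839016 to 8839568, had folds of 15.6, 15.4 and 14.9 in replicates 1, 2 and 3, or 15.3 ± 0.363 (SD, n = 3), and a mean percentile of 94.0. The 3 libraries were close to each other here, with a coefficient of variation of 2.37%, against a median of 13.1% over all consensus regions. It was centred 11726 bp inside the lower-coordinate end of dally and 388 bp from the end of CG32026, a protein-coding gene nested in dally.

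A second strong region of dally, at 8833278 to 8833590, lay 5958 bp inside the gene and had folds of 12.7, 14.7 and 15.1, or 14.2 ± 1.26 (SD, n = 3). In replicate 3 it stood above the region at 8839016, and in replicates 1 and 2 below it, so the order of the pair was not the same in all libraries. Another region, at 8839869 to 8840175, lay 300 bp beyond the strongest and had 9.83, 8.90 and 9.53. These 3 regions, all within 12589 bp of the lower-coordinate end, were the strongest of dally, and in each library every other dally region had a lower fold.

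Beyond them came a stretch of 42.4 kb inside dally, from 8840176 to 8882615, with no consensus region and a single peak of replicate 3 with a fold of 4.43. The regions on its far side were weaker. That at 8882616 to 8882937 had folds of 7.01, 6.76 and 5.39, and that at 8885294 to 8885452 had 5.89, 5.02 and 5.83, which places them at mean percentiles of 42.9 and 29.9.

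Outside dally, the flank at the lower-coordinate end held 3 consensus regions and no annotated gene. The region nearest to the gene, at 8827334 to 8827464 and 108 bp outside it, had folds of 4.36, 6.35 and 4.29, so that replicate 2 stood above the other two. The region 2206 bp outside, at 8825189 to 8825453, had 8.94, 8.76 and 8.68, the smallest spread of the 20, with a coefficient of variation of 1.51%. The region 4531 bp outside, at 8822485 to 8823219, was the widest of the 20 at 735 bp and had 5.38, 4.50 and 5.14, with summits up to 505 bp apart between libraries. By mean fold the region at the gene end was level with the outermost one as the weakest of dally, and stronger regions stood on either side of it. At the other end only replicate 3 had a peak, 84 bp outside dally and 320 bp from Mcm7, which encodes a subunit of the replicative helicase, with a fold of 5.11.

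The gene dlp, dally-like, encodes the second glypican of the fly, known for its effects on Wingless and Hedgehog, and lies on 3L at 14632601 to 14671609. It had 4 consensus regions inside, all in the part nearer its lower-coordinate end, and none in the 22.3 kb from 14649354 to its upper end. A pair of regions stood 250 bp apart. That at 14634039 to 14634374, centred 1603 bp inside the gene, had folds of 9.86, 12.4 and 10.3, or 10.9 ± 1.35 (SD, n = 3). That at 14634625 to 14635069, 2203 bp inside, had 10.8, 9.41 and 9.69, or 9.98 ± 0.755. Their ranges overlap, and which of the pair was higher differed between libraries, with the inner one ahead only in replicate 1.

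Farther inside dlp, the region at 14637026 to 14637341 was weak and steady, with 5.27, 4.47 and 5.13. The region at 14649173 to 14649353 was the least even of the 20, with 12.8 in replicate 1 against 5.67 and 7.55 in replicates 2 and 3, or 8.68 ± 3.70 (SD, n = 3). Replicate 1 placed this region at the 90.4th percentile of its peaks and replicate 2 at the 28.3rd, so its rank within dlp rests on which library is read. In replicate 1 it was the highest peak of the dlp window, and in replicate 2 it stood below the pair near the gene end.

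The dlp window also held 2 consensus regions beyond its upper-coordinate end, both inside ome, which encodes a dipeptidyl peptidase. The region at 14673937 to 14674420, 2704 bp from dlp, overlapped the initiator methionine tRNA genes tRNA:iMet-CAT-1-4 and tRNA:iMet-CAT-1-5 and had folds of 10.2, 10.9 and 11.6, or 10.9 ± 0.700 (SD, n = 3). By mean fold it was the strongest region of the window, ahead of the region 1603 bp inside dlp by less than the SD of either. Its nearest gene end was that of tRNA:iMet-CAT-1-5, 31 bp away. The other, at 14675968 to 14676152, overlapped CG4914 and had 5.57, 4.75 and 8.01. At the lower-coordinate end of dlp itself no consensus region was found, and only replicate 1 had a peak there, which overlapped the end with its summit 53 bp outside and had a fold of 3.27.

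The glypican windows held most merged regions of any kind, 12 for dally and 11 for dlp of the 34 in all windows. Of the 34, 58.8% had a peak in all 3 libraries, against 53.1% of merged regions over the main chromosomes. Of the 14 regions with peaks in only 1 or 2 libraries, 9 lay in the windows of dally and dlp. Over all 6 windows the 14 comprised 3 regions of 2 libraries, with a median fold of 4.35, and 11 of 1 library. Those of 1 library had a median of 5.11 and a range of 3.27 to 7.36. Replicate 1 accounted for 5 and replicate 3 for 6 of the regions of 1 library, and replicate 2 for 0. Replicate 2 also had the fewest peaks, both in the windows and in its whole list. The same split over all regions of 1 library is not given here. The highest of them, a peak of replicate 1 at 14642209 to 14642308 inside dlp, had a fold of 7.36, above several of the consensus regions.

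The exostosin genes ttv, sotv and botv carried little signal of their own. The gene ttv, tout-velu, encodes the fly homolog of EXT1, a subunit of the heparan sulfate polymerase, and lies on 2R at 14526267 to 14587917. Its single consensus region, at 14526993 to 14527101, lay 787 bp inside the lower-coordinate end and had folds of 10.5, 9.32 and 13.3, or 11.0 ± 2.04 (SD, n = 3), at a mean percentile of 80.7. The remaining 60.8 kb of the gene had no consensus region. Replicate 1 had a peak of 4.49 over LamC, the lamin C gene nested in ttv, and replicate 3 a peak of 4.60 at 1359 bp from it, and these did not overlap.

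The gene sotv, sister of tout-velu, encodes the homolog of EXT2, the partner of Ttv in the polymerase, and lies on 2R at 16145904 to 16148719. No peak of any library lay inside sotv. Its window was reached by 2 consensus regions, both inside the neighbouring gene lbk. The region at 16150512 to 16150729, 1897 bp from sotv and 493 bp from the end of lbk, had folds of 9.01, 10.1 and 8.31. That at 16153614 to 16153718, which also overlapped lncRNA:CR45993, had 3.74, 3.82 and 2.96 and was the weakest of the 20, at a mean percentile of 2.45. Both regions fell outside the window when the flank was 1000 bp.

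The gene botv, brother of tout-velu, encodes the homolog of EXTL3, which acts at the start of the chain, and lies on 2R at 19129589 to 19133706. No peak of any library lay in its 14.1 kb window. Of 2566 other protein-coding genes with a window length within 10% of that of botv, 966 (37.6%) likewise had no peak in any library, and 1074 had a consensus region.

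The gene sfl, sulfateless, encodes the N-deacetylase/N-sulfotransferase that acts before the other sulfotransferases, and lies on 3L at 6495680 to 6550104. Its signal stood at its ends, with 53.6 kb between them that held no consensus region. The region at 6496250 to 6496456, 693 bp inside the lower-coordinate end, had folds of 10.5, 8.70 and 13.6, or 10.9 ± 2.48 (SD, n = 3). Replicate 1 alone had a further peak on either side of it, 72 bp and 223 bp away, with folds of 5.29 and 6.26. The order of the libraries, with replicate 3 highest and replicate 2 lowest, was the same as at the region in ttv.

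At the other end of sfl, a region at 6550201 to 6550372 lay 193 bp outside sfl and 441 bp from MCU, which encodes the mitochondrial calcium uniporter, and overlapped neither gene. It had folds of 7.27, 8.13 and 4.88, or 6.76 ± 1.69 (SD, n = 3). A further region, at 6552331 to 6552599 inside MCU, had 9.08, 5.18 and 6.49. Replicate 2 was the highest library at the site between the genes and the lowest inside MCU.

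A region was taken as at a gene end where any part of it lay within 1000 bp of either end, wherever its centre was. Of the 6 genes, 3 (dally, ttv and sfl) had such a consensus region, against 20.6% of all protein-coding genes. The share was 39.9% for genes from 50000 bp, to which all 3 belong, 43.3% for the class of dlp and 14.5% for that of sotv and botv. A consensus region overlapped the span of 4 of the 6 genes, dally, dlp, ttv and sfl, against 16.1% of all protein-coding genes. For genes as long as these the share was higher, at 68.7% from 50000 bp and 55.5% for the class of dlp.

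By the fold of the strongest consensus region in the window, the order of the genes was dally (15.3), ttv (11.0), sfl (10.9), dlp (10.9) and sotv (9.13), with botv at none. The lowest library of dally, 14.9, stood above the highest of each other gene's strongest region, 13.6 in sfl. The values of ttv, sfl and dlp overlapped between all pairs of these genes, so their order is within the spread of the libraries. Those of sotv overlapped with ttv and sfl, while its highest library, 10.1, stood just below the lowest of dlp, 10.2. The strongest regions of the dlp and sotv windows both lay in a flank, inside the neighbouring genes ome and lbk. The strongest region inside dlp by mean fold had 9.86, 12.4 and 10.3, a range that overlapped with that of sotv. Inside sotv there was no region. A gene with more regions has more to choose its strongest from, and dally had the most.

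**Figure D3:**
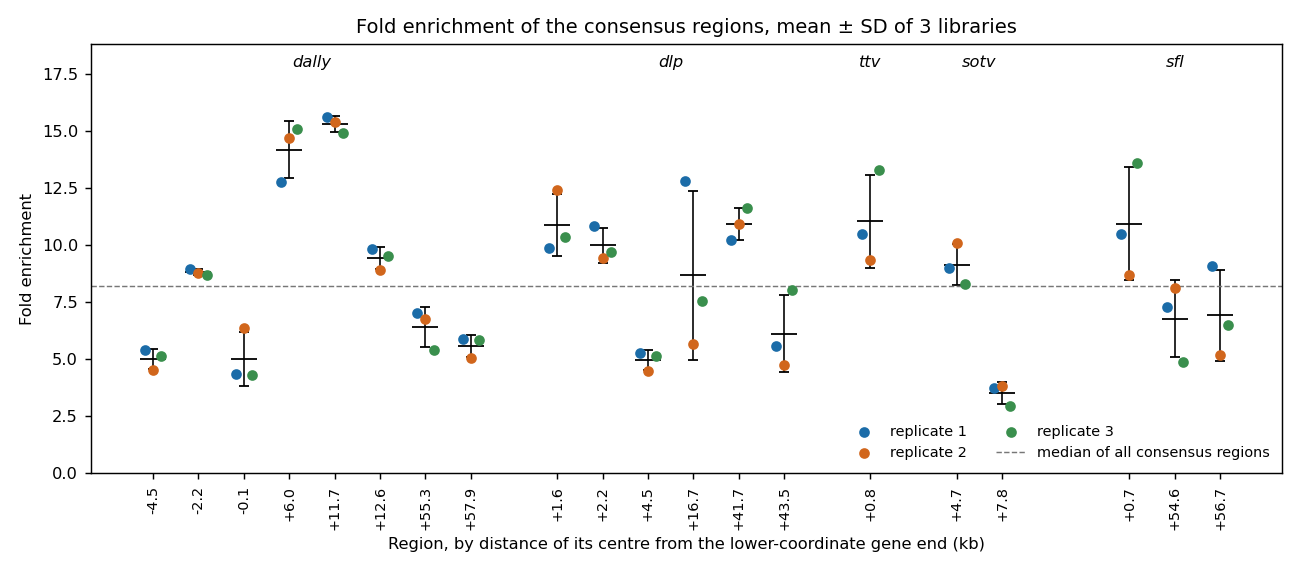
Fold enrichment (vertical axis) of the 20 consensus regions, ordered along each gene and marked by the distance in kb of the centre from the lower-coordinate gene end (horizontal axis). Points are the 3 libraries, bars the mean ± SD, and the dashed line the median of all consensus regions, 8.2. The 2 strong regions of dally stand above all others by mean fold, and the region of dlp at +16.7 kb has the widest spread.

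Summits of the 3 libraries lay about as close together as in all consensus regions, and the merging of overlapping peaks itself favours close summits. The largest distance between the summits of the 3 libraries had a median of 31 bp over the 20 regions, against 34 bp over all consensus regions. It was at most 100 bp in 17 of the 20, and the share over all consensus regions is not given here. The median coefficient of variation of fold was 11.1%, with a range of 1.51% to 42.7%. Across the 20 regions, which share libraries and are not independent, Spearman's rho of fold was 0.753 between replicates 1 and 2, 0.847 between 1 and 3 and 0.815 between 2 and 3. Replicate 1 had the highest fold at 10 regions, and replicates 2 and 3 at 5 each, and the same count over all consensus regions is not given here. The width of the regions was 105 to 735 bp, with a median of 267 bp, against 237 bp over all consensus regions.

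Other genes of heparan sulfate proteoglycans ranged from no consensus region to regions with a fold above that of dally. Of 18 further genes, 9 (50%) had a consensus region in their windows, against 40.2% of all protein-coding genes. With a flank of 1000 bp 7 had one, against 23.9%, and with no flank 7, against 16.1%, and the spans of the list were not matched. Of the 18, 5 (27.8%) had one at a gene end, against 20.6%. The median fold of the strongest region of those 9 genes was 10.6. The genes of the other core proteins, trol and Sdc, had strongest regions of higher mean fold than dally. For trol, which encodes perlecan of the basement membrane, a region that overlapped the gene end, centred 181 bp outside it, had folds of 13.4, 19.0 and 15.4, or 16.0 ± 2.80 (SD, n = 3), and it was the only consensus region in the window of this gene of 75.0 kb. For Sdc, the syndecan gene, the strongest of 3 regions, all inside, had 17.6, 16.2 and 17.2, or 17.0 ± 0.713, and the region at its end had 8.33 ± 0.917. These strongest regions of trol and Sdc overlapped with the range of dally only in trol, since all 3 libraries of Sdc were above those of dally.

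Among the genes that supply sugar and sulfate donors, 3 of 5 had a consensus region in their windows, against 40.2% of all protein-coding genes. The groups by role are small, and their spans were not matched. The region at the end of sgl, which encodes UDP-glucose dehydrogenase, had a fold of 10.6 ± 0.549 (SD, n = 3), and that at the end of mmy, which encodes UDP-N-acetylglucosamine pyrophosphorylase, 7.10 ± 1.69. A region inside frc, a nucleotide sugar transporter gene, had 11.5 ± 1.61 and also overlapped Coq4. The sulfate donor genes sll and Papss had none, and no peak in any library.

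Of the 4 genes for the linker between protein and chain, 1 (25%) had a region in its window, against 40.2% of all protein-coding genes. This was oxt, a xylosyltransferase gene, and its region lay over ecd at 3226 bp from oxt. The galactosyltransferase genes beta4GalT7 and beta3GalTII and the glucuronyltransferase gene GlcAT-I had no consensus region, though beta3GalTII had peaks in 2 libraries. Of 6 modifying enzymes, 2 (33.3%) had a region in their windows, against the same 40.2%. The gene Sulf1, whose product removes sulfate groups outside the cell, had 4 regions. The strongest, inside the gene, had folds of 15.4, 15.2 and 18.7, or 16.4 ± 1.98 (SD, n = 3). The 2 regions of the Hs2st window lay outside that gene. The epimerase gene Hsepi and the sulfotransferase genes Hs6st, Hs3st-A and Hs3st-B had none. Hs6st, with a span of 79.2 kb, had peaks in each library, but no region with all 3.

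Notum, which encodes a secreted esterase that inactivates Wingless and is linked in its action to glypicans, had 3 regions in its window. The strongest, inside the gene, had a fold of 10.6 ± 0.968 (SD, n = 3), and the higher of 2 at a gene end had 8.03 ± 1.40. By fold this is close to the strongest regions of dlp, sfl, ttv and sgl.

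**Figure D4:**
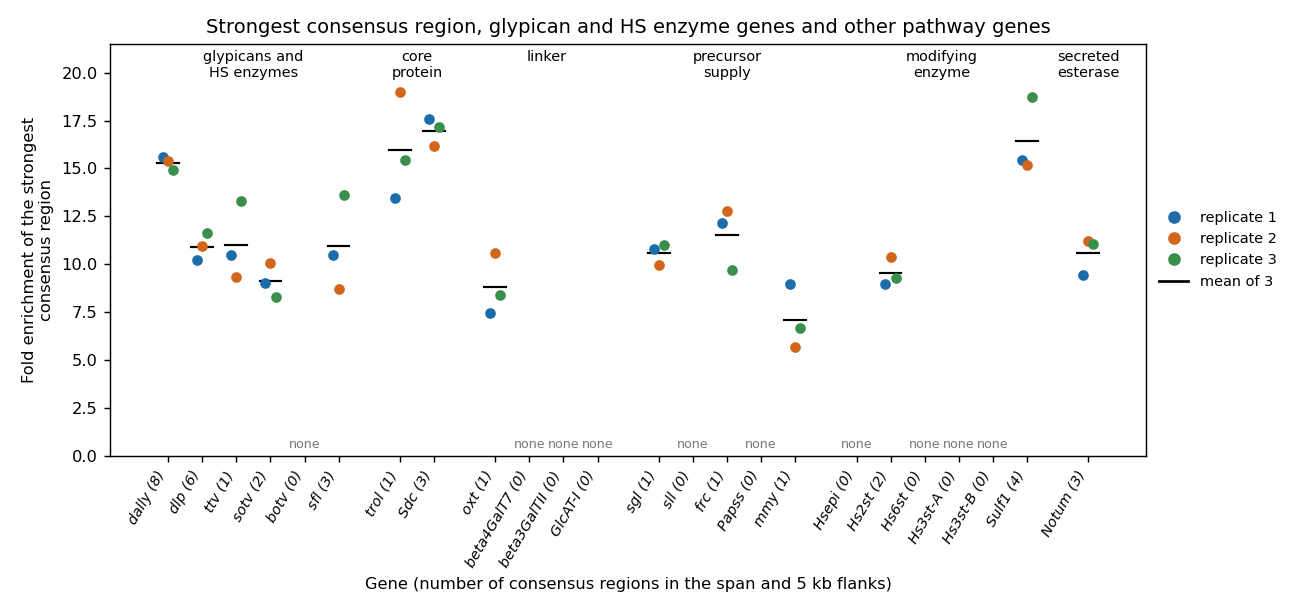
Fold enrichment of the strongest consensus region (vertical axis) in the windows of the 6 genes, then of 18 other heparan sulfate pathway genes by role (horizontal axis, number of consensus regions in brackets). Points are the 3 libraries and bars their mean. The core protein genes dally, trol and Sdc and the sulfatase gene Sulf1 have means of 15.3 to 17.0. All other genes with a region, including the core protein gene dlp at 10.9, are below 12.

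Genes most like each of the 6 were sought among protein-coding genes with a window length within 10% and the same number of consensus regions, by the Euclidean distance of the log2 fold of the strongest peak in the window over the 3 libraries. For dlp the nearest of 8 such genes was nuf, with folds of 12.8, 12.4 and 11.6 for dlp and 13.0, 12.9 and 11.2 for nuf, a distance of 0.0789. The strongest peak was taken in each library separately, so the 3 values of a gene need not come from 1 region. Those of dlp came from the regions at 14649173, at 14634039 and, inside ome, at 14673937. For sotv the nearest of 453 was Bcs1, at 0.0738, and for sfl the nearest of 15 was haf, at 0.244. A single gene, tun, met the conditions for dally, at 0.433, and the nearest of 8 for ttv was Ank2, at 0.591. With 3 libraries of a single group, likeness here describes peak number and height only.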

How the data were processed

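The 3 libraries were CUT&Tag with an antibody to HA on wing discs. Per the submitters' processing notes, reads were handled on dm6 with tools that include Trim Galore, Bowtie2, Bowtie and MACS2, and the sources used here do not give the aligner, most versions or the read filters. Peaks were called per library, per the peak names in the deposited lists. The authors' fold enrichment is a linear ratio at each summit. The deposited −log10 p-value and −log10 q-value (lowest 2.00, 2.02 and 2.02) and the deposited score, the whole-number part of 10 times that q-value entry in at least 99.98% of peaks, are further columns, of which the q-value served to filter peaks in an alternative and to describe regions.

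Peaks on X, Y, 4 and the arms of chromosomes 2 and 3 were merged with Python 3.11.15 and pandas 2.3.3, code tested on simulated data. Genes came from the NCBI RefSeq table of Release 6 plus ISO1 MT, in which all 6 genes and all list genes matched by symbol. That table has no strand, exons or sequence, so the planned searches for sequence motifs were not run and no sequence is given. The genes, lists and rules were chosen with earlier results of these data known. Named are the 6 genes, the listed pathway genes with a region at a gene end or with none in the window, other genes that overlap a region or lie nearer to it, and the most alike gene. Further pathway genes with regions elsewhere (oxt, frc, Hs2st and Sulf1) were named after their values were seen. Alternatives changed the libraries required, the flank, the peak threshold and the overlap, and left out each library in turn.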

Additional observations from a re-analysis of the deposited data

How the results depend on the processing

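The number of genes with a consensus region, 5 of 6, stayed within 4 to 5 under the alternatives run, and was 4 with a flank of 1000 bp or none, since sotv then had no region. The 20 consensus regions became 13 with a flank of 1000 bp, 11 with no flank and 10 when only peaks above the median fold of their library were merged. With regions of at least 2 libraries there were 23, with a −log10 q-value of at least 5 there were 18, and with summits within 100 bp there were 19. Leaving out 1 library gave 20 to 22 regions. No flank left 5 regions for dally, 4 for dlp, 1 for ttv and 1 for sfl. Peaks above the median fold left 4, 3, 1 and 1 for these genes. The fold of the strongest region of each gene moved by less than the SD of its libraries wherever the gene still had a region. The strongest region was chosen anew in each alternative, and for dlp it changed. It was the region over the tRNA genes in ome with all libraries and the full flank. Without replicate 1 or 3, or with a flank of 1000 bp or none, it was the region 1603 bp inside dlp. Without 1 library the highest fold was 15.2 to 15.5 for dally, 10.9 to 11.4 for dlp, 9.89 to 11.9 for ttv and 9.60 to 12.0 for sfl. The other pathway genes with a region numbered 9 and were 9 to 11 with 1 library left out, 11 with at least 2 libraries, 8 with peaks above the median fold, and 7 with a flank of 1000 bp or none. The share of all protein-coding genes with a region moved as well. It was 40.2% in the main setting, 48.2% with at least 2 libraries and 42.4% to 44.1% with 1 library left out. With peaks above the median fold it was 29.9%, with a −log10 q-value of at least 5 37.3%, and with summits within 100 bp 39.1%. A flank of 1000 bp gave 23.9%, and none gave 16.1%. No paired analysis was possible because there is 1 group. Depth is unknown, so a window without a peak shows only that none passed the caller's threshold.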

Other observations

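Fold and the −log10 q-value ranked the regions of dally differently. The region 2206 bp outside dally, with a fold of 8.79 ± 0.133 (SD, n = 3), had deposited −log10 q-values of 36.6, 35.0 and 38.0. The region 5958 bp inside, with a fold of 14.2 ± 1.26, had 27.1, 29.8 and 31.7. Each library of the region outside the gene was thus above each of the region inside by q-value, and below it by fold. At the strongest region by fold, at 8839016 to 8839568, the −log10 q-values were 49.1, 48.0 and 44.0, the highest of the window by both measures in replicates 1 and 2.

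In dlp the regions 1603 and 2203 bp inside the gene had −log10 q-values of 28.9, 43.6 and 34.2 and of 34.1, 28.0 and 30.9. The region over the tRNA genes in ome had 25.0, 27.7 and 28.9, the lowest of the 3 regions in every library, although its mean fold was the highest.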
